A study of Homo sapiens with 3 samples.

Results

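RNA bound by CSTF2tau in BE(2)-C, a human cell line from a neuroblastoma, was examined for 6 genes of the neuronal microtubule cytoskeleton. They were MAP1B (ENSG00000131711), MAP2 (ENSG00000078018), MAPT (ENSG00000186868), DCX (ENSG00000077279), STMN2 (ENSG00000104435) and TUBB3 (ENSG00000258947). The list was chosen by function and on the measured peaks, with the strong signal of MAP1B and MAP2 near the 3' end already known, so their levels and their 3' signal are given as a description. Of the 6 genes, 5 had a listed peak, out of 13356 gene IDs in all. Replicates 1, 2 and 3 held peaks of 5, 3 and 5 of them.

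The study recovered RNA crosslinked to CSTF2tau by sCLIP, in which ultraviolet light fixes protein to RNA in living cells and the partly digested RNA is precipitated with an antibody and sequenced. All samples were 1 group of 3 biological replicates of cells labelled WT, with no treatment given in the labels. The 3 peak lists held 105203, 18346 and 78761 peaks with 736059, 108434 and 387784 reads, and each lists only peaks of at least 3 reads. No control or input library and no measure of RNA abundance was used here, so binding per molecule and the amount of a transcript cannot be told apart.

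CSTF2tau is a paralogue of CSTF2, the part of the cleavage stimulation factor that contacts RNA and recognises G- and U-rich RNA downstream of the cleavage site when the 3' end of an mRNA is made. Microtubules are polymers of alpha- and beta-tubulin, and neurons add proteins that stabilise, bundle or take apart these polymers as axons and dendrites grow. MAP1B, MAP2 and MAPT (tau) bind along microtubules, MAP2 mainly in dendrites and tau mainly in axons. DCX (doublecortin) stabilises microtubules in migrating neurons, STMN2 sequesters tubulin in growth cones, and TUBB3 is the neuronal class of beta-tubulin.

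Together the 6 genes held 2382, 273 and 1247 reads in replicates 1, 2 and 3. These were 0.324% (95% exact Clopper-Pearson interval 0.311 to 0.337%), 0.252% (0.223 to 0.283%) and 0.322% (0.304 to 0.340%) of the listed reads, a mean of 0.299% ± 0.0409 (SD, n = 3). The intervals cover counting error only, because the reads need not be independent molecules. Replicate 2 was thus the lowest, with an interval below those of replicates 1 and 3, which overlapped.

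Among the proteins that bind along microtubules, MAP1B had the highest mean share of reads of the list. It held 906, 201 and 302 reads, or 0.123%, 0.185% and 0.0779%, with a mean of 0.129% ± 0.0540 (SD, n = 3). That mean ranked 75 among all gene IDs. MAP2 had 635, 69 and 228 reads, or 0.0863%, 0.0636% and 0.0588%, with a mean of 0.0696% ± 0.0147 (SD, n = 3) and rank 183. MAP2 was the most even of the 5 genes with peaks, and its highest share, in replicate 1, lay above the lowest share of MAP1B, in replicate 3. MAPT was without a listed peak in all 3 replicates. Since the lists leave out weaker signal, this gives no upper limit for MAPT.

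STMN2 had 697 reads in replicate 1, none in replicate 2 and 569 in replicate 3. Its shares were 0.0947%, 0 and 0.147%, with a mean of 0.0805% ± 0.0744 (SD, n = 3) and rank 145. Replicates 1 and 3 were thus high and replicate 2 had nothing, where the shares of replicates 1 and 3 would have given 103 and 159 reads. No peak of another gene ID was listed inside its span either. Among 72 gene IDs with at least 100 reads expected in replicate 2 from each of the other replicates, 4 (5.56%) had none there. STMN2 is itself counted among the 72 and among the 4. Without replicate 2 the mean share of STMN2 was 0.121%, and without replicate 3 it was 0.0473%.

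DCX had 27, 3 and 109 reads, or 0.00367%, 0.00277% and 0.0281%, with a mean of 0.0115% ± 0.0144 (SD, n = 3) and rank 1895. Only replicate 3 was high, and without it the mean was 0.00322%. DCX is the only gene of the 5 on the minus strand, and replicate 3 had 63.2% of its nuclear reads on that strand, against 48.8% in replicate 1 and 50.6% in replicate 2. Taken as a share of the reads of the same strand, DCX still had 0.0447% in replicate 3 against 0.00754% and 0.00557% in replicates 1 and 2. Its share in replicate 3 was 7.66 times that in replicate 1, while the median of minus-strand gene IDs with at least 20 reads in both was 1.43 times. Of 1989 such gene IDs, 22 had a higher ratio.

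TUBB3 had 117, 0 and 39 reads, or 0.0159%, 0 and 0.0101%, with a mean of 0.00865% ± 0.00804 (SD, n = 3) and rank 2533. Without replicate 1 its mean share was 0.00503%, and without replicate 2 it was 0.0130%. Replicate 2 would have been given 17.2 and 10.9 reads by the shares of replicates 1 and 3. Most of the TUBB3 signal was not listed for TUBB3 alone. Of its 18 peaks, 16 with 136 of its 156 reads carried a further gene ID, and ENSG00000198211, which overlaps it, had 111, 0 and 39 reads. Without peaks under several gene IDs the mean share of TUBB3 fell to 0.000956%. In order of mean share the genes ran MAP1B, STMN2, MAP2, DCX and TUBB3. The ranges over the replicates overlapped between neighbours in this order, except that every share of MAP2 lay above every share of DCX.

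**Figure D1:**
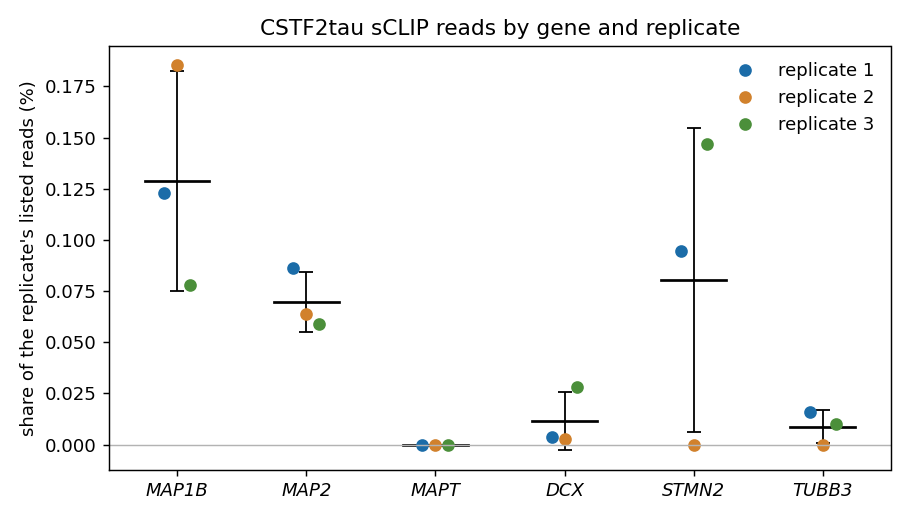
Share of each replicate's listed reads (percent) for the 6 genes. Points are replicates, the thick line is the mean and the bar is 1 SD (n = 3). MAP1B, MAP2 and STMN2 reach above 0.05% in at least 2 replicates, STMN2 and TUBB3 are at 0 in replicate 2, and MAPT is at 0 in all 3.

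The positions of the reads were compared along each gene. Neither an annotation nor a sequence of the hg19 build was used here, so exons, introns and the last exon could not be assigned, and no bound sequence is printed. The listed span, from the first to the last base of a gene's peaks over all 3 replicates, stands in for the gene. No peak on the opposite strand was listed inside any of the 5 spans.

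MAP1B had its reads packed into the far 3' part of a span of 100 kb, chr5:71404992-71505490 (+). A stretch of 16.1 kb at the 3' end, chr5:71489374-71505490, held 80.9%, 94.0% and 60.6% of its reads in replicates 1, 2 and 3. It was set apart by a gap of 14995 nt without any listed peak, the largest of the gene. Within it lay a pair of dense parts, divided by a gap of over 2 kb. The upstream part, chr5:71489374-71497023, held 36.3%, 58.2% and 19.5% of the reads of the gene, and the part next to the 3' end, chr5:71499395-71505490, held 44.6%, 35.8% and 41.1%. With all listed peaks counted, the part next to the 3' end was of similar weight in all replicates. The upstream part was heaviest in replicate 2 and lightest in replicate 3. The MAP1B transcript is known for a very large internal coding exon and a long untranslated 3' end, but whether these parts coincide with them was not tested.

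The last 5 kb of the MAP1B span held 43.8% (95% interval 40.6 to 47.1%), 35.8% (29.2 to 42.9%) and 41.1% (35.5 to 46.8%) of its reads, a mean of 40.2% ± 4.06 (SD, n = 3). The first 5 kb held 0.552%, 0 and 1.99%. Pooled over replicates the last 5 kb held 42.1%, against a median of 7.22% over 1874 gene IDs with a span of at least 50 kb and at least 100 reads, and 4.32% of these had a higher value. Peaks covered 56.9% of the last 5 kb, against 8.56% of the whole span.

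The strongest MAP1B locus was the outermost, chr5:71505088-71505490, a merged region of 403 nt with 59, 32 and 0 reads. Replicates 1 and 2 were high there and replicate 3 had no listed peak. Next came chr5:71504774-71505009, 481 nt from the last listed base, with 42, 8 and 23 reads. Further loci lay 3330 to 4036 nt from that base, at chr5:71502040-71502160 with 50, 5 and 8 reads, chr5:71501455-71501638 with 36, 11 and 12, and chr5:71501327-71501454 with 41, 0 and 18. Read numbers at a locus also follow the size of the libraries, of which replicate 1 was the largest. Together these 5 loci held 24.5% of the reads of MAP1B. In the upstream part the strongest locus was chr5:71493118-71493441, 324 nt long, with 28, 20 and 7 reads.

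In all 3 replicates 9 MAP1B loci were found, and all 9 lay in the 16.1 kb stretch. Beside 4 of those named above they were chr5:71501131-71501243 with 22, 5 and 5 reads, chr5:71501855-71502016 with 19, 8 and 4, chr5:71491043-71491152 with 14, 8 and 6, chr5:71491820-71492084 with 3, 16 and 9, and chr5:71492131-71492330 with 10, 10 and 7. Of 39 loci upstream of the stretch, 5 were found in 2 replicates and none in all 3.

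In replicate 1 the MAP1B list was broken into small pieces. Of its 133 peaks, 77 (57.9%) were under 20 nt wide, with a median width of 7 nt and 3 to 12 reads each, and 22 neighbouring pairs of them abutted with no base between. They lay at chr5:71489895-71504262 and held 356 of the 906 reads. Replicates 2 and 3 had no such peak in MAP1B, and in the whole list of replicate 1 they made up 4.43% of peaks. Without peaks under 20 nt the mean share of MAP1B was 0.115%, and the last 5 kb held a mean of 47.5% ± 15.9 (SD, n = 3) of its reads. With all peaks that SD was 4.06, so the similar weight of the 3' end across replicates held only with the narrow peaks included. The number of MAP1B peaks in replicate 1 therefore cannot be set against the other replicates.

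**Figure D2:**
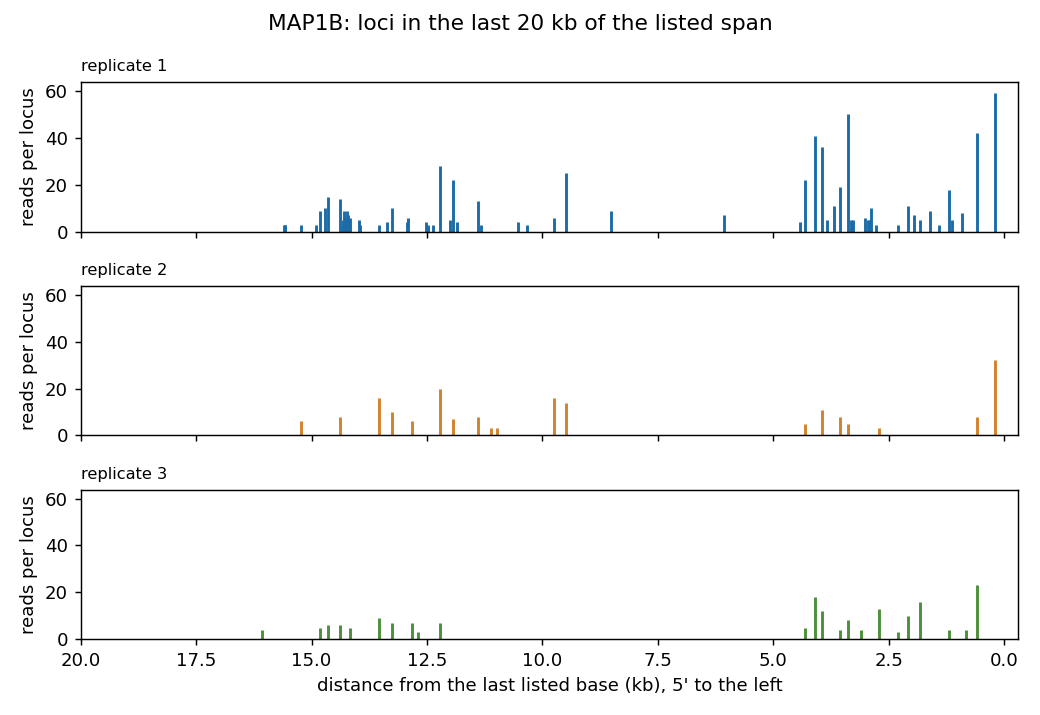
Reads per MAP1B locus (vertical axis) against its distance in kb from the last listed base (horizontal axis, 5' to the left), for the last 20 kb of the listed span in each replicate. Loci crowd into a pair of dense parts in all 3 replicates, and the outermost locus has 59 and 32 reads in replicates 1 and 2 and none in replicate 3.

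MAP2 had a longer span, 264 kb at chr2:210335260-210598797 (+), and was close to empty over most of it. The 3' stretch of 53.1 kb, chr2:210545664-210598797, held 93.5%, 95.7% and 95.6% of its reads in replicates 1, 2 and 3. The remaining upstream part held 41, 3 and 10 reads in 12 loci and included a gap of 66.0 kb. All replicates thus had the same lopsided placement. Within the 3' stretch the signal fell into 3 dense parts. The first, chr2:210545664-210570425, held 36.2%, 56.5% and 46.9% of the reads, the next, chr2:210574778-210592674, held 36.9%, 21.7% and 36.0%, and the last, chr2:210595003-210598797, held 20.5%, 17.4% and 12.7%.

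The last 5 kb of the MAP2 span held 20.5% (17.4 to 23.8%), 17.4% (9.32 to 28.4%) and 12.7% (8.69 to 17.8%) of its reads, a mean of 16.9% ± 3.90 (SD, n = 3). The ranges of MAP1B and MAP2 over the replicates did not overlap. The same 5 kb was 4.98% of the MAP1B span but 1.90% of the MAP2 span. These shares therefore do not compare concentration at the 3' end relative to span. Pooled, the value for MAP2 was 18.3%, and 22.1% of the 1874 gene IDs had a higher one. Its strongest loci were also not the outermost. The first, chr2:210575297-210575540, lay 23257 nt upstream of the last listed base and had 22, 7 and 10 reads. Then came chr2:210580130-210580331 with 25, 5 and 5 reads, chr2:210556406-210556474 with 0, 20 and 9, chr2:210596793-210596974 with 20, 6 and 3, and chr2:210553273-210553513 with 15, 0 and 13. Of these 5 loci, 3 were present in all replicates, and they were the only MAP2 loci that were. The single strongest in replicate 2 was absent from replicate 1.

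DCX had thin signal over a span of 116 kb on the minus strand of the X chromosome, chrX:110536932-110653306. The 10% of the span next to the 3' end held 20 of the 27 reads of replicate 1, all 3 of replicate 2 and 44 of the 109 of replicate 3. The 1 peak of replicate 2 itself set that end. Replicate 3 alone also had many reads far upstream. There 49.5% of the reads (39.8 to 59.3%) lay 3' of the midpoint of the span, against 88.9% (70.8 to 97.6%) in replicate 1, and the 10% of the span next to the 5' end held 15 reads in replicate 3 against 3 in replicate 1. The strongest locus, chrX:110543091-110543282, lay 6159 nt from the last listed base and had 4, 0 and 9 reads. It was the only DCX locus found in more than 1 replicate, of 28. The next loci were chrX:110625262-110625387 with 11 reads, chrX:110539519-110539675 with 10 and chrX:110544632-110544706 with 8, all in replicate 3 only, and chrX:110537470-110537665 with 8, in replicate 1 only.

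STMN2 had the opposite placement, with most reads near the 5' end of a span of 55.1 kb at chr8:80523389-80578457 (+). The first 15 kb held 72.4% of its reads over both replicates with peaks. The first 5 kb held 32.1% (28.7 to 35.7%) in replicate 1 and 16.9% (13.9 to 20.2%) in replicate 3, and only 17.8% and 5.27% of the reads lay 3' of the midpoint. Pooled, the first 5 kb held 25.3%, against a median of 5.69% over the 1874 gene IDs, and 3.68% of these had a higher value. The first 10 kb held 54.5%, against a median of 9.68%, with 1.17% higher. A window of fixed length takes up more of a short span, and 10 kb was 18.2% of that of STMN2. A small separate part at the 3' end, chr8:80577080-80578457, held 13.6% of the reads in replicate 1 and 3.34% in replicate 3, after a gap of 9.91 kb without a listed peak.

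The strongest STMN2 locus, chr8:80529279-80529564, lay 5890 nt from the first listed base and had 35, 0 and 62 reads, the most of any locus of the 5 genes. It was followed by chr8:80529795-80529902 with 24, 0 and 30 reads, chr8:80525909-80526142 with 23, 0 and 24, chr8:80539042-80539174 with 46, 0 and 0, and chr8:80535911-80536023 with 9, 0 and 30. Of these 5, 4 were found in both replicates that list the gene, and the fourth was in replicate 1 only. The first intron of STMN2 is known to hold a cryptic exon with its own polyadenylation signal, which is used when the RNA-binding protein TARDBP is lost. Where that exon lies relative to these loci was not tested.

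**Figure D3:**
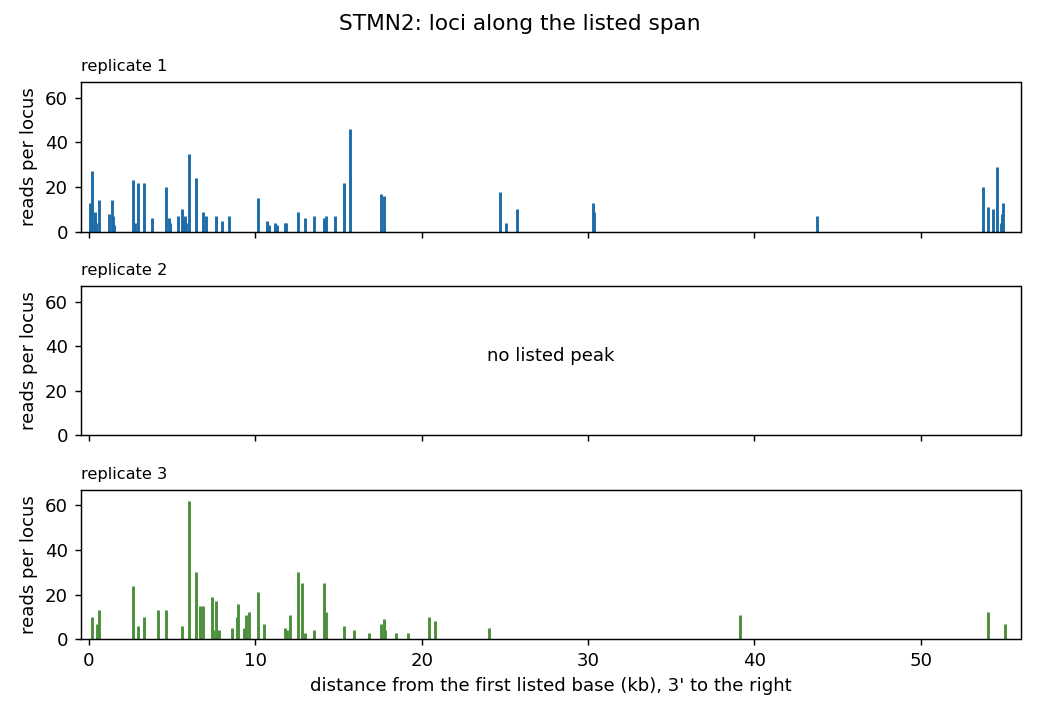
Reads per STMN2 locus (vertical axis) against its distance in kb from the first listed base (horizontal axis, 3' to the right), by replicate. In replicates 1 and 3 most loci lie in the first 20 kb with a small group at the 3' end, and replicate 2 has no listed peak.

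TUBB3 was the shortest, with 11.8 kb at chr16:89990833-90002599 (+) and 16 loci. Its reads formed 2 separate parts. The 5' part, chr16:89990833-89994152, held 67 of 117 reads in replicate 1 and 30 of 39 in replicate 3, and the 3' part, chr16:89997802-90002599, held 50 and 9. The 5' part was thus the larger in both. The strongest loci were chr16:89991696-89991840 with 26, 0 and 9 reads and chr16:89991986-89992121 with 4, 0 and 15, and only these were found in both replicates. Next were chr16:89990833-89991011 and chr16:90002296-90002465 with 14 reads each and chr16:90001194-90001283 with 10, all in replicate 1 only. Because most of these peaks were listed under several gene IDs, their transcript of origin is uncertain.

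**Figure D4:**
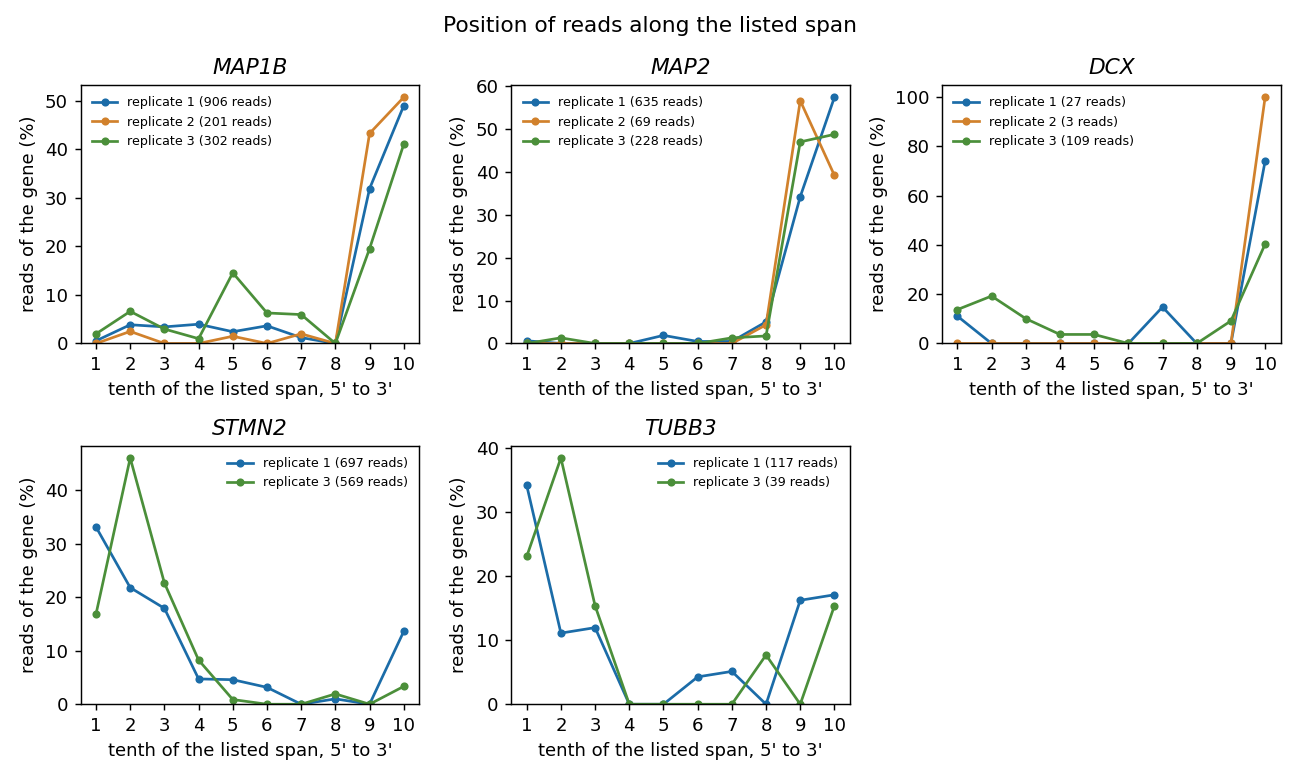
Percent of a gene's reads (vertical axis) in each of 10 equal parts of its listed span (horizontal axis, 5' to 3') for the 5 genes with peaks, 1 line per replicate. MAP1B and MAP2 have most reads in the last 2 parts in all replicates, and MAP1B also has a smaller mid-span part in replicate 3. STMN2 and TUBB3 are highest in the first 2 parts. DCX has reads in parts 1, 2 and 3 in replicate 3, of which replicate 1 has part 1 only, at a similar percent.

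The lean to either end was then tested for each gene ID with at least 5 loci, as reads in the last 10% against the first 10% of the span. Calls toward the 3' end were made for 18.1% of the 6382 gene IDs in the test, and calls toward the 5' end for 14.1%. A call needed an adjusted p below 0.05 (exact two-sided binomial test, Benjamini-Hochberg over all gene IDs tested) and the same direction in each replicate with reads there. MAP1B, MAP2 and DCX were called at the 3' end, and STMN2 and TUBB3 at the 5' end. The direction of MAP1B and MAP2 was part of the choice of genes, and nothing is read from their calls.

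In replicates 1, 2 and 3 MAP1B had 444, 102 and 124 reads in the last 10% and 5, 0 and 6 in the first 10%. The log2 ratio of the sums was 5.87, with an SD of 1.72 over the 3 replicates, and ranked 9 of all tested. MAP2 had 364 against 4, 27 against 0 and 111 against 0, a log2 ratio of 6.80 with an SD of 1.04, and ranked 3. All 3 replicates of both genes were on the 3' side. Replicate 2 as a whole leaned to the 3' end, with a log2 ratio of 0.81 over all gene IDs against -0.18 and -0.25 in replicates 1 and 3. When replicate 1, 2 or 3 was left out, the span and its ends were redrawn from the remaining peaks. The ratio was then 4.43, 5.63 or 6.63 for MAP1B and 5.04, 6.72 or 6.44 for MAP2. For MAP2 without replicate 1 the redrawn ends held 115 against 3 reads. These values therefore mix the loss of a replicate with moved windows.

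DCX had 20 against 3, 3 against 0 and 44 against 15 reads, higher at the 3' end in 3 of 3 replicates. The log2 ratio was 1.87 with an SD of 0.68 over 3 replicates (exact binomial test, adjusted p = 5.1e-07). The 3 reads of replicate 2 were 1 peak that itself set the 3' end of the span, so its direction was fixed. Without replicate 2, on a span redrawn from the remaining peaks, the ratio was 1.80 (64 against 18 reads). The call was lost when the span was divided at its midpoint (81 against 58 reads; exact binomial test, adjusted p = 0.099) and with numbers of peaks instead of reads (12 against 5; exact binomial test, adjusted p = 0.26). STMN2 had 95 against 231 reads in replicate 1 and 19 against 96 in replicate 3, a log2 ratio of -1.52 with an SD of 0.73 over 2 replicates (exact binomial test, adjusted p = 1.5e-23; lower at the 3' end in 2 of 2). Ranked from the 3' side like MAP1B and MAP2, STMN2 was 5229 of all tested, and its ratio lay above their 10th percentile of -2.15. With peaks in place of reads it kept its call, at 9 against 32 (exact binomial test, adjusted p = 0.0033). Without replicate 1, on a span redrawn from the remaining peaks, the ratio was -2.39 (19 against 102 reads).

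TUBB3 had 20 against 40 and 6 against 9 reads, a log2 ratio of -0.90 with an SD of 0.31 over 2 replicates (exact binomial test, adjusted p = 0.026; lower at the 3' end in 2 of 2). Replicate 3 alone had a ratio of -0.55 on this span. Without replicate 1, on a span redrawn from the remaining peaks, it was -1.91 (6 against 24 reads), so that value depends on the moved ends. Counted as peaks the ends of TUBB3 were equal, at 3 against 3, and without peaks under several gene IDs it had too few loci for a value. Reads of a peak are not independent, so these p-values cover counting error and no spread between cultures. Differences between the 5 genes in the ratio were not tested.

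**Figure D5:**
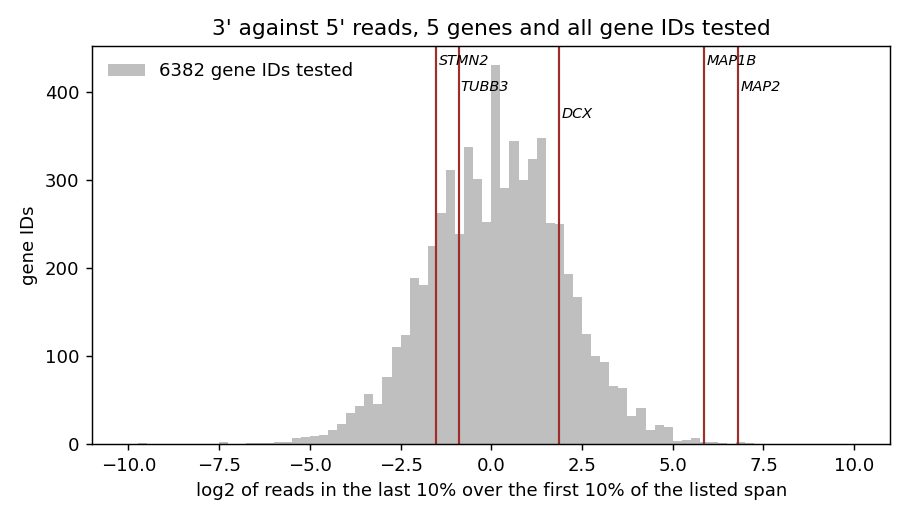
Histogram of the log2 ratio of reads in the last 10% to the first 10% of the listed span over 6382 gene IDs tested (vertical axis, number of gene IDs), with the 5 genes as vertical lines. MAP1B (5.87) and MAP2 (6.80) lie at the far right, DCX (1.87) on the right shoulder, and TUBB3 (-0.90) and STMN2 (-1.52) left of 0.

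The recurrence of positions between replicates was compared next. Peaks of a gene ID that overlapped by at least 1 nt were merged into loci over the replicates. Of 364 loci of the 5 genes, 68 were found in exactly 2 replicates and 12 in all 3, so that 22.0% (95% interval 17.8 to 26.6%) came back, against 8.52% of 182036 nuclear loci counted per gene ID. These 22.0% of loci held 52.8% of the reads of the genes. The share was 24.4% for MAP1B, 23.6% for MAP2 and 24.2% for STMN2, but 12.5% for TUBB3 and 3.57% for DCX, the genes with the fewest reads. It rose with reads, in part by construction. Each listed peak has at least 3 reads, and reads were summed over the same replicates. Loci with the lowest sums therefore cannot recur, and each recurrence adds reads. The 52.8% of reads is raised in the same way. Among loci with 3 to 9 summed reads the share was 4.03% for the 5 genes and 2.26% for all nuclear loci. Among those with 10 to 19 reads it was 36.1% and 33.0%, and from 20 reads on 87.3% and 66.7%. The share of 22.0% changed to 8.43% without replicate 1, 17.2% without replicate 2 and 8.03% without replicate 3.

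The shortest window with 50% of the reads of a gene was compared with the median of 25.5% of the span over the 1874 gene IDs, taken on reads pooled over replicates, whereas the values by replicate rest on fewer reads. For MAP1B it was 10.9%, 4.11% and 12.9% of the span in replicates 1, 2 and 3, and for MAP2 it was 8.06%, 3.04% and 9.62%. For STMN2 it was 14.4% and 11.6% in replicates 1 and 3. These 3 genes were below that median in each replicate with peaks. DCX was below it in replicate 1, at 5.62%, and above it in replicate 3, at 42.0%, where the window lay toward the 5' end.

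Peaks of the 5 genes had somewhat more reads than those of the lists. The median was 6, 5.5 and 6 reads per peak in replicates 1, 2 and 3, against 5, 4 and 4 over all peaks. The median width was 64, 84.5 and 73 nt, against 79, 72 and 69, so lower in replicate 1 and higher in replicates 2 and 3. Replicate 1 includes the 133 peaks of MAP1B, with a median width of 12 nt. The stretch of at most 4 nt that the authors mark inside each peak lay at a median of 49.0%, 47.6% and 48.4% of the peak width from its 5' side, against 49.4%, 49.3% and 50% over all peaks.

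Gene IDs with the most similar read placement were found by the summed absolute difference of the percent of reads in the 10 parts of the span, over 2779 gene IDs with at least 100 reads. The percent was a mean over the replicates with reads, each of equal weight whatever its number of reads. For MAP1B the most similar gene IDs were ENSG00000135837 (17.8 points, against a median of 117 over all) and ENSG00000178951 (21.7 points). For MAP2 they were ENSG00000179218 (14.2 points) and ENSG00000099622 (17.5 points). ENSG00000111371 (17.6 points) and ENSG00000139514 (19.3 points) were nearest to DCX, and ENSG00000146966 (18.0 points) and ENSG00000169410 (20.7 points) to STMN2. For DCX the 3 reads of replicate 2, all in the last part, weighed as much as the 109 of replicate 3. Its matches therefore depend on that 1 peak. TUBB3 was nearest to ENSG00000198211 (8.75 points), with which it shares peaks, and then to ENSG00000198121 (19.7 points). The files do not pair these IDs with names. For the same reason a list of 50 other microtubule genes, among them the alpha-tubulins and the kinesin motors, and the marker genes of neuroblastoma cells were not analysed here, since 0 of the listed gene IDs could be given a symbol through the RefSeq table.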

How the data were processed

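CSTF2tau sCLIP peak lists of 3 biological replicates of BE(2)-C cells were used, 1 list per replicate and none pooled. Per the submitters' processing notes the build was hg19 and the tools named, with neither role nor version, were STAR, SAMtools, bedtools and FastQC. Which program called peaks and which annotation gave the IDs is not given in the sources used here. A p-value per peak was deposited by the authors and served only as a filter. The deposited peak names end in a whole number after the ID and a running number. It was taken as reads because its Spearman correlation with p was -0.988, -0.973 and -0.964. No source states this, and all read values rest on it. These totals cover listed peaks, not sequencing depth.

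Peaks were taken by the gene ID before the dot. The files do not pair IDs with symbols; the pairs come with the gene list, and the peaks of 5 of 5 genes lay on the chromosome of their symbol in RefSeq GRCh38.p14. Positions are peak midpoints and coordinates are 1-based. Ends were compared for gene IDs with at least 5 loci and 10 reads at both ends together, with 0.5 reads added to each end for the log2 ratio. The test was run on simulated data, but with independent reads, as the test itself assumes. That check gives no rate of false calls for reads that clump in peaks. Dense parts are runs of loci with no gap over 2 kb. Python 3.11.15, pandas 2.3.3 and SciPy 1.17.1 were used.

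The genes, lists and tests were chosen with earlier results of these data known. All 6 genes are named, with the 5 loci of most reads and each locus in all 3 replicates (at most 10 a gene), and the 2 gene IDs most alike in placement. P-values cover only the counting error of summed reads taken as independent, and no spread between replicates.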

Additional observations from a re-analysis of the deposited data

How the results depend on the processing

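Of 145 alternative values, 118 stayed within a limit (1 SD of the replicates, the same call, 1.5 times for counts of gene IDs, or the interval for loci), 24 moved and 3 lost a call. Only the log2 end ratios could change sign, and none of them did. Shares and counts are never negative. A limit of 1 SD is wide for STMN2, DCX and TUBB3. As a share of same-strand reads, chosen after seeing the data like the limit on narrow peaks, mean shares were 0.272% for MAP1B, 0.151% for MAP2, 0.193% for STMN2 and 0.0193% for TUBB3. These are higher by construction, because the reads of the other strand leave the denominator. The log2 end ratio was 3.95 for MAP1B with the outer 20% of the span, and 2.44 for MAP1B, 5.55 for MAP2 and 0.48 for DCX with the span divided at its midpoint. Counting peaks gave 5.45 for MAP2, 1.18 for DCX and 0 for TUBB3, with 218 calls toward 3' and 225 toward 5' over all gene IDs, against 1158 and 900. Peaks at or below the median p gave 5.08 for MAP2, 734 and 590. Leaving out 1 replicate gave 5.04 to 6.72 for MAP2, 617 to 1171 calls toward 3' and 540 to 1051 toward 5', the lowest of each without replicate 1. In these settings the listed spans were redrawn from the peaks kept, so the windows at the ends could move too. Leaving out 1 replicate gave 8.03 to 17.2% of loci in more than 1 replicate, fewer by construction, and an overlap of 50% of the shorter peak gave 17.5%. The last 2.5 kb held 19.5% of MAP1B and 11.2% of MAP2 reads, the last 10 kb held 46.9% of MAP1B reads, and without peaks under 20 nt the last 5 kb held 47.5% of MAP1B reads. Except where the construction shows it, the cause was not tested. No paired analysis was possible because all samples form 1 group.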

Other observations

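The running number in a peak's name went far beyond the listed peaks for MAP1B in replicate 1. The highest number there was 1024, with 133 listed, so that 87.0% of the numbers had no listed peak. In replicates 2 and 3 the highest numbers for MAP1B were 58 and 107, with 58.6% and 58.9% not listed. For MAP2 the highest numbers were 152, 33 and 98. No source used here says what the unlisted numbers stand for.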
